A study of Homo sapiens with 3 samples.

Results

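The comparison described here set LNCaP cells grown in PPAT-CM against LNCaP cells grown in PVAT-CM, and so used 2 of the 3 RNA sequencing libraries of the study, 1 for each medium. LNCaP is an established human prostate cancer line that responds to androgens. CM stands for conditioned medium, PPAT for periprostatic adipose tissue, the fat around the prostate, and the labels do not spell out PVAT. The labels mark PPAT-CM as tumor and PVAT-CM as normal, and the study's text says that expression was to be compared between the media. Cells had 24 h in complete medium, followed by 72 h in medium that was 50% CM with 2% FBS (fetal bovine serum). The third library came from cells in control-CM and shows a level beside the other 2; it also entered the count filter and the scaling below. How many donors gave tissue for each CM, and whether CM was pooled, is not given in the sources used here.

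Of 58884 gene rows, 12256 were kept, those whose raw counts averaged 50 or more across all 3 libraries. The library totals were 14174241 counts in PVAT-CM and 16965584 in PPAT-CM, which became 14256673 and 18387876 after TMM scaling, a factor that lines up the bulk of genes between libraries. An equal raw count in both libraries is therefore a lower level in PPAT-CM. Levels are given in scaled CPM, counts relative to the scaled library total, and a ratio is always PPAT-CM over PVAT-CM. Each ratio has a 95% counting interval, which covers counting error only and not differences between cultures. It can be too narrow even for counting error, because the reads carried no molecular identifiers and copies of 1 molecule can be counted more than once. Where 3 counts of a gene stand in a row, they are in the order control-CM, then PVAT-CM, then PPAT-CM. With 1 library a side there is no spread between replicates, no test and no p-value, and a gene is called higher or lower when its ratio passed 1.5-fold and its interval excluded 1. These are differences between 2 libraries, and how much 2 cultures in the same medium would differ was not measured. Fewer cells of a type and less RNA per cell cannot be told apart in such data.

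Both libraries carried the markers of the line. All 12 luminal prostate markers were kept, with 50794 counts in PVAT-CM and 49596 in PPAT-CM between them. After scaling, 5 of the 12 were called lower in PPAT-CM (6.04% of all genes kept were) and 2 higher (8.56%), with a median log2 ratio of -0.28. None of the 14 leukocyte markers passed the filter, and together they had 23 and 40 counts, with PTPRC, CD3E and MS4A1 at 0 in every library. Of these counts ITGAM, an integrin of myeloid cells, had 1, 0 and 21 (at least 5.43-fold higher against a floor of 3 counts), and CD79A, of B cells, 2, 3 and 10. Among 10 adipocyte markers CFD alone passed, ADIPOQ, LEP, FABP4, LPL and RETN were at 0, and the sums were 209 and 262. CFD was lower in PPAT-CM, while below the filter PLIN1, a lipid droplet coat protein, had 13, 27 and 89 counts (2.56-fold higher, 1.65 to 4.09) and GPD1, a glycerol phosphate enzyme, 27, 5 and 47 (7.29-fold, 2.91 to 23.5). The 10 fibroblast markers had 371 and 534 counts, most of them from COL1A1, with COL1A2, DCN and PDGFRA at 0. The 8 endothelial markers had 23 and 43 counts, with CDH5 and KDR at 0. Genes of the mitochondrial chromosome took 21.1% of counts in PVAT-CM and 15.5% in PPAT-CM, and TMM factors computed without those genes moved every ratio by 0.01 on the log2 scale.

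Several pathways come up in what follows. NF-kB is a family of transcription factors held inactive by inhibitor proteins until cytokine or microbial receptors signal, and many of its targets are its own inhibitors. Interferons act through JAK kinases and STAT factors, which switch on IRF1 and, through NLRC5 and CIITA, the HLA genes that display peptides to T cells. In prostate cells androgens drive KLK3, which encodes prostate-specific antigen, and TMPRSS2.

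Over all genes kept, 1049 (8.56%) were called higher in PPAT-CM and 740 (6.04%) lower. Counts of called members in each list below are to be read against these shares. At 2-fold the numbers were 300 higher (2.45%) and 180 lower (1.47%). The median log2 ratio was 0.02 with a standard deviation of 0.49 across genes. Scaled by total counts instead, every ratio was 0.11 higher on the log2 scale, and the split became 1472 higher and 509 lower at 1.5-fold and 409 and 123 at 2-fold. The filter on mean counts lets a gene in through the library where it is high: 106 of the 300 genes had under 50 counts in PVAT-CM, and 47 of the 180 had under 50 in PPAT-CM. Genes with low counts also spread more, with a standard deviation of 0.75 where the mean count was 50 to 100 and 0.36 where it was 500 to 1000. Antisense genes had a median of -0.24 (406 genes) and long intergenic noncoding genes -0.19 (344 genes), against 0.03 for 10970 protein-coding genes.

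**Figure D1:**
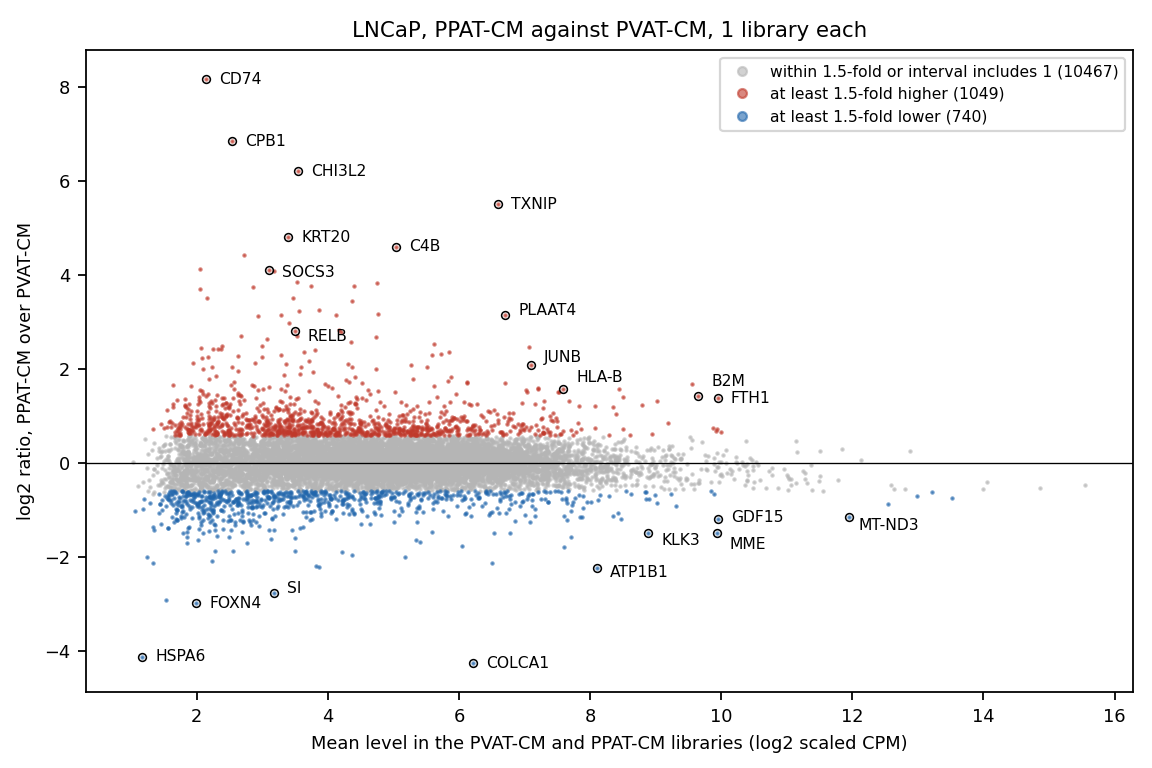
Each point is 1 of 12256 genes, with its mean scaled CPM over the PVAT-CM and PPAT-CM libraries on the x axis (log2) and its log2 ratio on the y axis, 1 library each. Red points are the 1049 genes called higher and blue points the 740 called lower, and TXNIP stands out among the better counted genes at 5.50. The position of CD74, with a count of 0 in PVAT-CM, depends on the pseudocount of 0.5.

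The largest ratio of a well-counted gene belonged to TXNIP (ENSG00000265972, chromosome 1, 145992435 to 145996600, minus strand, GRCh38), an alpha-arrestin that binds thioredoxin and lowers glucose uptake. TXNIP had 92, 59 and 3472 counts, or 4.14 scaled CPM under PVAT-CM and 189 under PPAT-CM. The PVAT-CM library was thus near the control level and PPAT-CM stood alone, 45.6-fold above PVAT-CM (35.3 to 60.1). ARRDC4, its closest relative in the arrestin family, had 160, 133 and 565 counts (3.29-fold higher, 2.72 to 4.01). ARRDC3, another arrestin, was 1.79-fold higher (1.66 to 1.92). The other arrestins measured, ARRDC1 and ARRDC2, had log2 ratios of 0.10 and -0.01. The glucose transporter genes SLC2A1 and SLC2A12 were 2.04-fold (1.8 to 2.31) and 1.85-fold lower (1.51 to 2.26), while MLXIP and MLX, the glucose-sensing factors that bind the TXNIP promoter, were at -0.12 and 0.01. In glycolysis 2 of 23 enzymes were called higher (PGAM1 and ALDOA) and 2 lower (HK2 and ALDOC), with a median of 0.14. Among all genes kept 8.56% were higher and 6.04% lower.

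The NF-kB pathway leaned one way. Of 57 listed genes 35 were measured, and 16 were called higher and none lower, with a median log2 ratio of 0.53 against 0.02 over all genes. The range ran from -0.30 to 2.80, and 2 of the 16, RELB and IRAK2, had under 50 counts in PVAT-CM. Among the subunits, RELB (ENSG00000104856, chromosome 19, 45001430 to 45038198, plus strand), the partner of NFKB2 in the noncanonical branch, had 29, 40 and 363 counts. That is 7.04-fold more in PPAT-CM (5.07 to 10.0) after scaling, and the PVAT-CM count lay close to control. NFKB1, the p50 precursor, had 437, 555 and 1758 counts (2.46-fold higher, 2.23 to 2.71). NFKB2 was 1.87-fold higher (1.72 to 2.03), whereas RELA, the main activating subunit, had a log2 ratio of 0.43 and was not called. Under the filter, the subunit REL had 17, 41 and 37 counts (ratio 0.700, 0.436 to 1.12). TNFAIP2, of the feedback group, had 6, 17 and 16 (0.730, 0.345 to 1.54), and both intervals included 1. IKBKG (2.17-fold, 1.42 to 3.41) and IKBKE (1.62-fold, 1.06 to 2.53) were higher there. These genes under the filter were picked after their values were seen.

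The inhibitors that NF-kB induces against itself were called higher in 6 of 9 cases. TNFAIP3, which removes the ubiquitin chains that carry the signal, had 40, 72 and 346 counts (3.73-fold higher, 2.88 to 4.87). BCL3, a nuclear member of the inhibitor family, was 4.04-fold higher (3.39 to 4.84), on 151 and 786 counts. NFKBIA, the classical cytoplasmic inhibitor, was 2.12-fold higher (1.89 to 2.39). NFKBIE, NFKBIZ and TNIP1 lay between 1.53-fold and 1.90-fold. Of 14 receptors, adaptors and kinases upstream of them 3 were called higher: TNFRSF1A, the main TNF receptor (2.08-fold, 1.94 to 2.24), IRAK2 (1.65-fold, 1.12 to 2.45) and MYD88 (1.5-fold, 1.33 to 1.70). Of 8 target genes 4 were higher. IL32, a secreted inflammatory protein, had 269 and 1777 counts (5.12-fold, 4.50 to 5.84). SOD2, the mitochondrial superoxide dismutase, had 697 and 2949 (3.28-fold, 3.02 to 3.57), and the apoptosis inhibitor BIRC3 had 111 and 448 (3.13-fold, 2.54 to 3.89). The chemokine genes usually listed as NF-kB targets were close to absent in both libraries, with CXCL8 at 1 and 1 counts, CXCL1 and IL6 at 0 and 0, CCL2 at 1 and 4 and CCL20 at 0 and 8. These chemokine genes and LCN2, an iron-binding protein with 23 and 110 counts, fell below the count filter and were picked after their values were seen.

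Promoter letters were searched beside these values, in the 250 bases before the start site of each gene with a RefSeq window (build GRCh38.p14), which 9512 of the 12256 genes had. The NF-kB consensus, on both strands, was in 1380 of all 27305 windows (5.05%) and 551 of the 9512 (5.79%). It was in 7 of the 14 windows of NF-kB pathway genes called higher (BIRC3, IL32, NFKB1, NFKBIA, NFKBIZ, TAPBP and TNFAIP3), and in 23 of 215 windows of genes at least 2-fold higher (10.7%) against 3 of 114 of those at least 2-fold lower (2.63%). The pathway list was made of known NF-kB genes, so its share above that of all windows is not a separate result. A match is a description of letters, and no binding was measured. The stretches below are shown because these genes carry the NF-kB result, in the sense of the gene, 5′ to 3′. Capitals mark matches to the NF-kB consensus or to GAAANNGAA, the core of the interferon-stimulated response element (ISRE), on either strand. They are TNFAIP3 at chr6:137867172-137867233 (plus strand), with a pair of sites, IL32 at chr16:3065284-3065334 (plus strand), with matches on both strands that overlap by all but 1 base, and NFKBIA at chr14:35404801-35404908 (minus strand).
TNFAIP3: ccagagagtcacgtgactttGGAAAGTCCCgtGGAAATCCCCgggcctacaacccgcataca
IL32: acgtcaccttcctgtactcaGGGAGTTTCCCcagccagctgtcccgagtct
NFKBIA: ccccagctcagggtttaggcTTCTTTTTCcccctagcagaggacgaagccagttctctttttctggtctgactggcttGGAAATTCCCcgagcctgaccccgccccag

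HLA class I genes, which present peptides from inside the cell, were higher in PPAT-CM, the chains without exception. All 6 measured class I chains were called higher and 4 of 10 transport, trimming and loading genes, none was lower, and the list's median was 0.74 (16 of 17 genes measured). B2M (ENSG00000166710, chromosome 15, 44711487 to 44718877, plus strand), the light chain shared by all class I molecules, had 3935, 6218 and 21590 counts, a ratio of 2.69 (2.62 to 2.77). HLA-B had 756, 1385 and 5298 counts (2.97-fold higher, 2.79 to 3.15). Control-CM was the lowest and PPAT-CM the highest library for both genes in scaled CPM too. HLA-E, HLA-F and HLA-C were between 1.68-fold and 2.22-fold higher, values that are uncertain because reads of similar HLA genes can be split. NLRC5, the transactivator of class I genes, had 106 and 591 counts (4.32-fold, 3.51 to 5.37). TAP1, a subunit of the peptide transporter, had 84 and 287 (2.65-fold, 2.07 to 3.42), while its partner TAP2 had 159 and 225 and an interval that included 1 (0.892 to 1.35). The general folding genes CALR, CANX and PDIA3, which also serve class I loading, had log2 ratios of -0.44, -0.47 and -0.30.

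Of the 10 class I genes called higher, 7 had a promoter window. The NF-kB consensus was in 6 of these (B2M, ERAP1, HLA-B, HLA-C, TAP1 and TAPBP) and the ISRE core in 4, against 7.06% of all windows for the ISRE core. TAPBP is counted with the NF-kB genes above too. The windows of HLA-B (chr6:31357326-31357376, minus strand), B2M (chr15:44711353-44711421, plus strand) and TAP1 (chr6:32853747-32853857, minus strand) are printed since these 3 genes show the heavy chain, the light chain and the transporter. In B2M and TAP1 an ISRE pair, in which the cores overlap, lies upstream of the NF-kB match, and in HLA-B the capitals hold NF-kB matches alone, overlapping by all but 1 base.
HLA-B: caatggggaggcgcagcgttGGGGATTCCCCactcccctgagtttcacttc
B2M: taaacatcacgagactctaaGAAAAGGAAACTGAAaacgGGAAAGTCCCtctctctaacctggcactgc
TAP1: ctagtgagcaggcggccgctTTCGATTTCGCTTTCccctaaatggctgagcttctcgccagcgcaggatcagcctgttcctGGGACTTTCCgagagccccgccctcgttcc

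The proteasome cuts the proteins whose fragments class I molecules carry, and its inducible parts differed while its standing parts mostly did not. All 4 measured immunoproteasome genes of 6 listed were called higher, with a median of 0.82: PSMB10, an inducible catalytic subunit (42 and 163 counts, 3.01-fold, 2.13 to 4.33), PSME1 and PSME2, which form the activator ring (1.75-fold and 1.79-fold), and the assembly factor POMP (1.56-fold). The other inducible catalytic subunits were under the filter and were picked after their values were seen. PSMB8 had 12 and 107 counts (6.91-fold, 3.80 to 13.8) and PSMB9 had 7 and 133 (14.7-fold, 6.95 to 37.4). Of the 31 constitutive subunits 3 were called higher (PSMA6, PSMC1 and PSMD7) and none lower, a share near the background of all genes, with a median of 0.07.

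Among class II genes, which are normally restricted to immune cells unless induced, 2 of 10 measured were called higher and both were near 0 counts outside PPAT-CM. CD74 (ENSG00000019582, chromosome 5, 150401637 to 150412929), the invariant chain, had 1, 0 and 162 counts, at least 41.9-fold higher against a floor of 3 counts. HLA-DRA had 6, 8 and 233 counts (22.6-fold higher, 11.3 to 52.9). Both passed the filter through PPAT-CM alone. Their transactivator CIITA, below the filter, had 17, 13 and 41 counts (2.45-fold, 1.28 to 4.97), and HLA-DRB1 had 1, 5 and 40. Also below the filter, HLA-DPA1 had 13, 28 and 46 counts (ratio 1.27, 0.779 to 2.12) and HLA-DMB 28, 42 and 55 (1.02, 0.667 to 1.56), both with intervals that included 1. These genes under the filter were picked after their values were seen. HLA-DQB1 and HLA-DMA, at log2 ratios of 0.41 and 0.47, were not called, and none of the 6 RFX and NF-Y factors was either. The leukocyte markers summed to 23 and 40 counts, of which ITGAM had 0 and 21, and their part in the class II values was not tested.

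**Figure D2:**
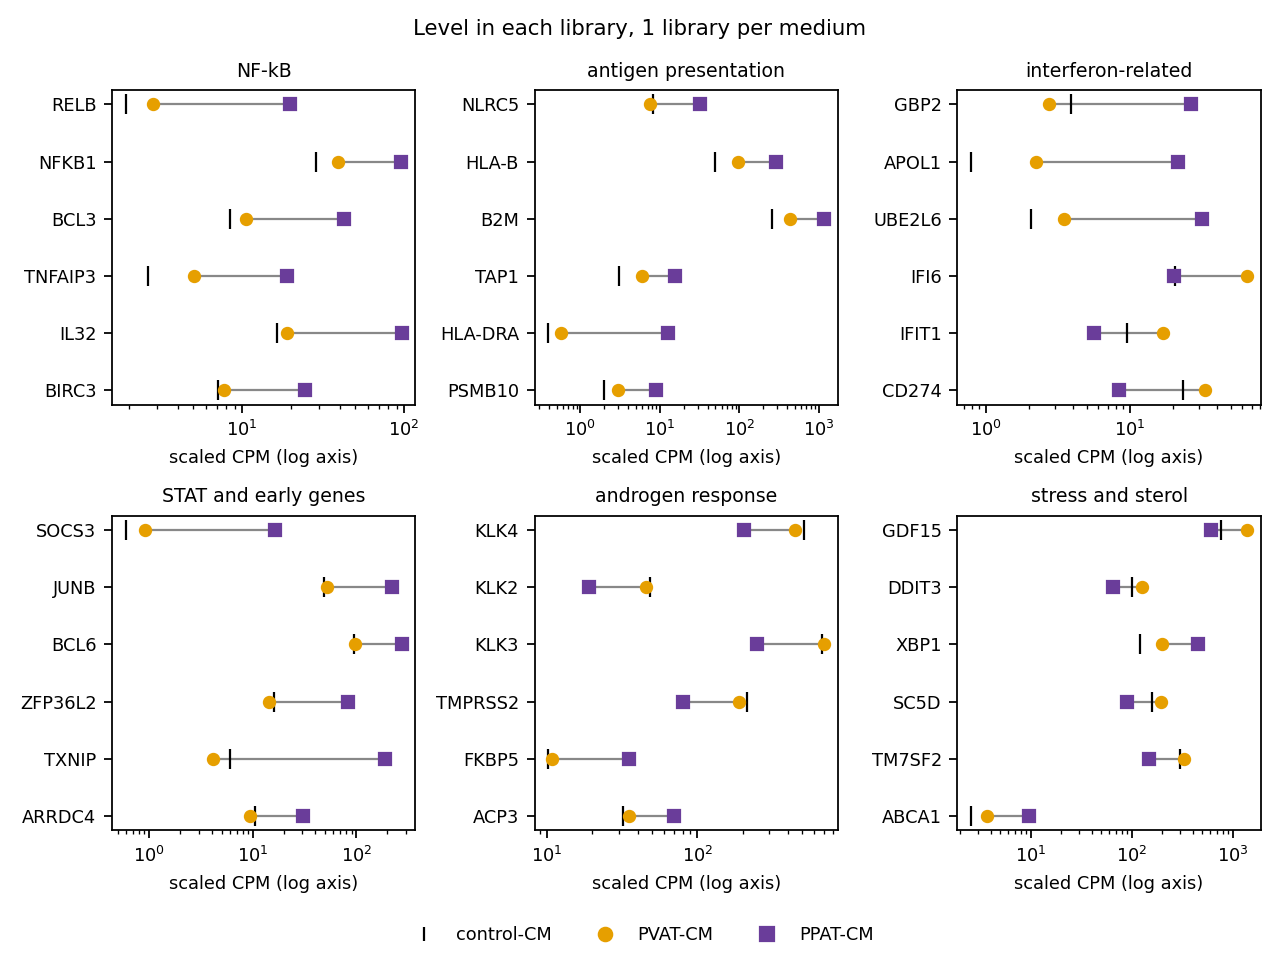
Scaled CPM (log axis) of 36 genes in 6 groups, with a tick for the control-CM library, an orange circle for PVAT-CM and a purple square for PPAT-CM, 1 library each. RELB, HLA-DRA, SOCS3 and TXNIP show PVAT-CM near control and PPAT-CM far to the right, whereas IFI6, IFIT1 and GDF15 are highest in PVAT-CM.

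Interferon-related genes split. Of 16 measured genes of the interferon gamma and IRF1 list (29 listed), 11 were called higher and 1 lower, with a median of 0.93, and 4 of the 11 had under 50 counts in PVAT-CM. The guanylate-binding proteins and the APOL family, both of which act against intracellular microbes, led. GBP2 had 59, 39 and 488 counts (9.70-fold, 7.0 to 13.8) and GBP3 had 22, 34 and 348 (7.94-fold, 5.57 to 11.6). APOL1 had 12, 32 and 394 counts (9.55-fold, 6.65 to 14.2), APOL6 had 29, 102 and 850 (6.46-fold, 5.26 to 8.01) and APOL3 was 5.68-fold higher (3.96 to 8.38). IRF1, the transcription factor that gives the list its name, had 84, 133 and 320 counts (1.87-fold, 1.52 to 2.30). Under the filter, GBP1 had 3, 3 and 36 counts (9.30-fold, 2.94 to 47.2) and APOL4 10, 8 and 27 (2.62-fold, 1.16 to 6.66). The chemokine genes CXCL10, with 2, 16 and 13 counts, CXCL11, with 4, 4 and 3, and CXCL9, with 0, 2 and 2, had intervals that included 1. GBP5 was at 0 in every library. These genes under the filter were picked after their values were seen. The 1 gene that went the other way was CD274 (ENSG00000120217, chromosome 9, 5450503 to 5470566, plus strand), which encodes PD-L1, the ligand that restrains T cells. CD274 had 354, 469 and 155 counts, so that PPAT-CM was below both other libraries and 3.90-fold under PVAT-CM (3.25 to 4.71).

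The type I interferon list held 36 measured genes of 50, with 13 called higher, 4 lower and a median of 0.29. Of the 13, 1 had under 50 counts in PVAT-CM. UBE2L6, which conjugates ISG15 to proteins, had 31, 50 and 578 counts (8.96-fold, 6.71 to 12.2). LGALS3BP, a secreted glycoprotein, had 208, 376 and 1617 (3.33-fold, 2.98 to 3.74), and DTX3L, a ubiquitin ligase that works with PARP9, was 2.45-fold higher (2.19 to 2.76). PARP9 itself was 1.93-fold higher (1.76 to 2.12), and IFI35 1.90-fold (1.61 to 2.26). On the other side stood IFI6 (ENSG00000126709), a small antiviral membrane protein, with 312, 922 and 369 counts, 3.22-fold lower in PPAT-CM (2.85 to 3.65), and IFIT1, which binds viral RNA, with 145, 243 and 104 counts (3.01-fold lower, 2.39 to 3.83). OASL was 1.86-fold lower (1.54 to 2.26) and ISG15, the ubiquitin-like protein that UBE2L6 attaches, 1.56-fold lower (1.46 to 1.66). For all 4 genes PVAT-CM was the library with the highest scaled CPM. The other 19 members lay within 1.5-fold or had intervals that included 1, among them OAS3 at 0.11 and IFIT3 at -0.08. Under the filter, RSAD2 had 23, 36 and 11 counts (ratio 0.237, 0.109 to 0.476) and IFI44L 6, 16 and 2 (0.0969, 0.0108 to 0.412). SAMD9 had 11, 18 and 47 (2.02, 1.15 to 3.70) and IRF9 37, 30 and 66 (1.71, 1.09 to 2.72). These members under the filter were picked after their values were seen. PLAAT4, a phospholipase known as an interferon- and retinoid-induced gene and outside the list, had 113, 301 and 3444 counts (8.87-fold higher, 7.88 to 10.0).

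The ISRE core was on both sides of this split: in 5 of 11 promoter windows of type I interferon genes called higher (IFIH1, IFITM3, ISG20, LGALS3BP and PARP14) and in all 3 of those called lower that had a window (IFI6, IFIT1 and ISG15). LGALS3BP (chr17:78979953-78980001, minus strand) and IFI6 (chr1:27672257-27672368, minus strand) are shown as 1 gene of each direction, with the same core in capitals, once in the former and 3 times in the latter.
LGALS3BP: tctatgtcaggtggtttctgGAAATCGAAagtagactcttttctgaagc
IFI6: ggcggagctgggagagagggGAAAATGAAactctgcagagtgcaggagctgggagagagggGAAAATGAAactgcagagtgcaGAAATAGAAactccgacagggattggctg

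IL-6 and its relatives signal through a shared receptor chain to JAK kinases and STAT3. Of 36 measured genes of this list (57 listed), 14 were called higher and 2 lower, with a median of 0.27. SOCS3, the feedback inhibitor that STAT3 induces, had 9, 13 and 299 counts (17.8-fold, 10.3 to 33.9). SOCS3 passed the filter through PPAT-CM alone, as the 1 of the 14 with under 50 counts in PVAT-CM. STAT3 itself had 1914, 2273 and 4747 counts (1.62-fold higher, 1.54 to 1.70). Among its targets 6 of 9 were higher, including BCL6, a transcriptional repressor, with 1376 and 5035 counts in the adipose media (2.84-fold, 2.67 to 3.01), CEBPD (2.07-fold, 1.92 to 2.24) and IL4R (2.39-fold, 1.88 to 3.07). OSMR, the oncostatin M receptor, was 2.06-fold higher (1.74 to 2.45), but IL6ST, the signalling chain that these cytokines share, had a log2 ratio of 0.04 and IL6R also 0.04. Lower were the kinase gene JAK2, with 641, 685 and 487 counts (1.81-fold, 1.61 to 2.04), and LIFR (1.64-fold, 1.40 to 1.92).

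Immediate early genes, which respond to growth factor and stress signals within minutes in most cells, were measured after 72 h here. Of 31 measured members 14 were called higher and 2 lower, with a median of 0.27. JUNB had 734, 745 and 4085 counts (4.25-fold, 3.93 to 4.6), and is counted in the STAT3 list as well. The RNA decay factors ZFP36L2 (205 and 1535 counts, 5.81-fold, 5.02 to 6.75), ZFP36 (3.58-fold, 3.19 to 4.01) and ZFP36L1 (1.74-fold, 1.61 to 1.88), which destabilise cytokine mRNAs, were all higher. The AP-1 family was not uniform, since FOS was 1.70-fold higher (1.60 to 1.82), while JUN and JUND had log2 ratios of -0.28 and -0.55. The orphan receptor gene NR4A2 was 3.16-fold (2.43 to 4.15) and DUSP5, a phosphatase that acts on ERK, 3.12-fold higher (2.28 to 4.32), and DUSP4 and SPRY1, which also restrain ERK signalling, were 1.88-fold (1.58 to 2.24) and 2.08-fold lower (1.55 to 2.80).

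**Figure D3:**
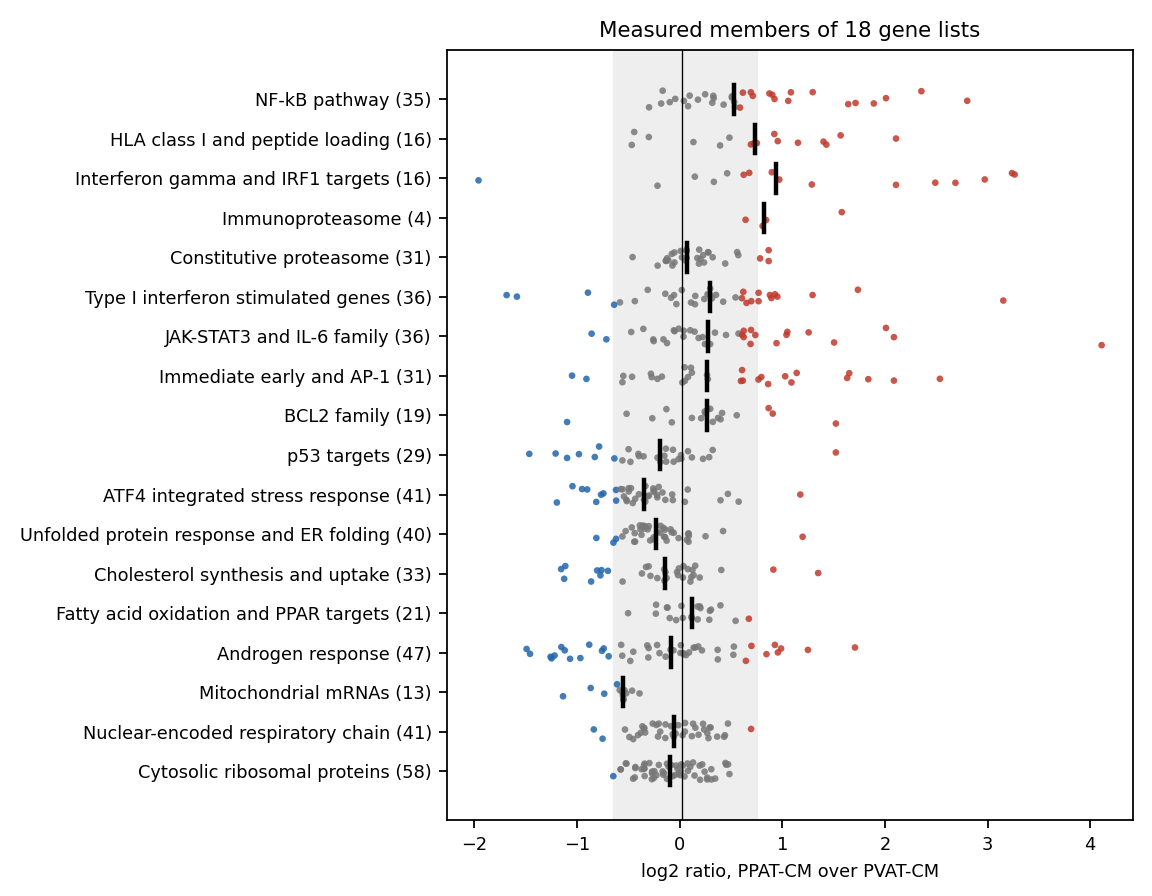
Log2 ratio of each measured member of 18 gene lists, PPAT-CM over PVAT-CM, with red for members called higher, blue for lower and grey for the rest, the black bar at the list's median and the number of members in brackets. The thin line is the median of all 12256 genes (0.02), the grey band holds 90% of them, and CD74 is in none of the lists shown. The androgen, nuclear respiratory chain and ribosomal protein medians turn positive with total-count scaling.

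In the complement system, a cascade of blood proteins that marks targets for lysis, 4 of 9 measured genes (22 listed) were higher and 3 lower, and 3 of the 4 (C4B, C4A and C1S) had under 50 counts in PVAT-CM, C4B and C4A passing the filter through PPAT-CM alone. C4B had 1, 37 and 1168 counts (24.5-fold, 17.7 to 34.9) and C4A had 3, 21 and 399 (14.7-fold, 9.51 to 24.1), though reads can be exchanged between these near-identical copies. C1S, which cleaves C4, had 61, 47 and 299 counts (4.93-fold, 3.62 to 6.86) and its partner C1R was 1.67-fold higher (1.46 to 1.90). CFB, of the alternative pathway, fell under the filter with 2, 0 and 62 counts, at least 16.0-fold above PVAT-CM. C2, also under it, had 7, 10 and 88 (6.82-fold higher, 3.54 to 14.7), and C5 had 33, 35 and 31 (ratio 0.687, 0.410 to 1.15). These 3 genes were picked after their values were seen. Of 4 measured proteins that protect the cell's own surface or fluid from complement 2 were called lower: CLU had 551, 418 and 146 counts (3.69-fold, 3.05 to 4.49) and CD55 was 2.19-fold lower (1.67 to 2.88). The other two, CD46 and CD59, were at -0.46 and 0.18. CFD, the alternative pathway protease that fat tissue makes in quantity, was 1.98-fold lower in PPAT-CM (1.55 to 2.53).

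Among 25 measured caspase and death receptor genes 7 were called higher and 3 lower, with a median of 0.31, and the higher ones included initiators of the death receptor branch. CASP10 (ENSG00000003400, chromosome 2, 201182881 to 201229406, plus strand), an initiator caspase, had 19, 14 and 314 counts (17.4-fold, 10.2 to 32.2). CASP10 passed the filter through PPAT-CM alone, as the 1 of the 7 with under 50 counts in PVAT-CM. CASP8, the related initiator, had 273, 267 and 542 (1.57-fold, 1.36 to 1.83), and the adaptor FADD, which links receptor to caspase, was 2.63-fold higher (1.96 to 3.58). CASP9, the initiator of the mitochondrial branch, had a log2 ratio of -0.18. Of 7 receptors and ligands TNFRSF1A and TNFRSF21 were higher. TNFRSF10A, a TRAIL receptor, was 1.53-fold (1.23 to 1.92) and the ligand TNFSF15 1.67-fold lower (1.45 to 1.93). Under the filter, TNFSF10, which encodes TRAIL itself, had 7, 10 and 94 counts (7.29-fold higher, 3.79 to 15.7). TNFRSF10C, also under it, had 27, 17 and 24, with an interval that included 1. These genes under the filter were picked after their values were seen. Of the BCL2 family, 3 of 13 pro-death genes were higher and 1 lower, and none of 6 anti-death genes was called. PMAIP1, which encodes NOXA, had 161, 239 and 886 counts (2.87-fold, 2.49 to 3.33), and BOK and BIK were 1.88-fold (1.65 to 2.13) and 1.82-fold higher (1.54 to 2.16). BBC3, which encodes PUMA, went the other way, with 366, 543 and 327 counts (2.14-fold lower, 1.86 to 2.46). DAPK1, a death-associated kinase, had 395, 54 and 17 counts, so that both adipose media lay far under control-CM and PPAT-CM was 4.10-fold under PVAT-CM (2.34 to 7.54).

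The targets of p53, which stops the cycle and triggers death after DNA damage, leaned down, with 7 of 29 called lower, 1 higher (PMAIP1) and a median of -0.19. GADD45A had 850, 1003 and 468 counts (2.76-fold lower, 2.47 to 3.09) and SPATA18 was 2.32-fold lower (1.75 to 3.09). MDM2, the p53 feedback inhibitor, was 1.72-fold (1.62 to 1.83), FDXR 1.98-fold (1.68 to 2.32) and DDB2, a DNA damage sensor, 1.78-fold lower (1.48 to 2.13). CDKN1A, the cell cycle inhibitor most often read as a p53 target, was at -0.56 and was not called, and BAX was at 0.12. Of 21 measured replication genes (26 listed) 1 was higher and 2 lower. Of 14 measured mitosis genes (27 listed) 2 were higher, CDK4 (2.01-fold, 1.72 to 2.34) and CCNE2. Under the filter, AURKB had 24, 5 and 29 counts (4.50-fold higher, 1.72 to 14.9) and CDK6 3, 12 and 49 (3.17-fold, 1.66 to 6.54). BUB1B had 44, 47 and 37 (ratio 0.610, 0.386 to 0.959). MKI67, with 34, 31 and 26, and TOP2A, with 36, 14 and 32, had intervals that included 1. These genes under the filter were picked after their values were seen.

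The ATF4 programme answers amino acid shortage and other stress by raising amino acid supply, and 9 of its 41 measured genes were called lower and 1 higher, with 31 not called and a median of -0.35. GDF15 (ENSG00000130513, chromosome 19, 18374731 to 18389176, plus strand), a secreted stress hormone, had 11665, 19663 and 11060 counts (2.29-fold lower, 2.24 to 2.35). DDIT3, the death-linked factor CHOP, had 1521, 1801 and 1201 (1.93-fold lower, 1.8 to 2.08). In both cases PVAT-CM was the highest library. SLC1A5, a glutamine transporter, was 2.06-fold (1.91 to 2.23), PSAT1, of serine synthesis, 1.87-fold (1.82 to 1.92) and SLC7A1, an arginine transporter, 1.76-fold lower (1.65 to 1.87). ATF4 mRNA was at -0.26 and TRIB3 1.54-fold lower (1.43 to 1.65). The exception was SLC7A5, a leucine transporter, with 129, 190 and 554 counts (2.26-fold higher, 1.91 to 2.68), although its partner chain SLC3A2 was at -0.34.

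Genes of the unfolded protein response were mostly within 1.5-fold, with 3 of 40 called lower (SEL1L, DNAJB11 and EIF2AK3) and a median of -0.24. The share called lower over all genes kept was 6.04%. The chaperone HSPA5 was at -0.37. XBP1 (ENSG00000100219, chromosome 22, 28794555 to 28800597, minus strand), the response's transcription factor, was the 1 member higher, with 1823, 2837 and 8393 counts (2.29-fold, 2.2 to 2.39). Counts per gene do not tell its spliced, active mRNA from the unspliced form. Of 22 measured heat shock genes 1 was higher and 1 lower, with a median of 0.09. HSPA6, close in sequence to others, had 100, 61 and 4 counts (19.7-fold lower, 7.30 to 74.5), and HSPA8, the constitutive relative, was 1.64-fold higher (1.58 to 1.71).

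Among 19 cholesterol synthesis genes 6 were called lower and none higher, with a median of -0.15. Among 14 genes of sterol uptake, export and control 2 were higher and 2 lower, with a median of -0.08. TM7SF2 had 4515, 4646 and 2689 counts (2.23-fold lower, 2.12 to 2.34) and SC5D 2397, 2787 and 1647 (2.18-fold lower, 2.05 to 2.32), both of which act late in the pathway. SQLE was 1.75-fold (1.58 to 1.93), MSMO1 1.71-fold (1.57 to 1.86) and EBP 1.62-fold lower (1.42 to 1.86). The export pumps ABCA1 (39, 53 and 175 counts, 2.56-fold, 1.87 to 3.55) and ABCG1 (1.89-fold, 1.42 to 2.54) were higher. STARD4, which carries cholesterol between membranes, and NPC1, which releases it from lysosomes, were 2.17-fold (1.87 to 2.52) and 1.82-fold lower (1.55 to 2.15). In fatty acid synthesis SCD, which makes monounsaturated fatty acids, was 2.09-fold lower (2.01 to 2.17), FADS1 1.54-fold lower and FASN at 0.11. Of 21 fatty acid oxidation genes 1 was called, SLC25A20, the carnitine carrier (1.60-fold higher, 1.31 to 1.95). The lipid droplet protein gene PLIN3 had 203, 193 and 634 counts (2.55-fold higher, 2.16 to 3.01), and was the 1 member higher of 11 measured droplet and lipolysis genes, with GPAM the 1 lower. Of its relatives under the filter, PLIN1 was higher, as given above, PLIN5 had 0, 0 and 17 counts (at least 4.39-fold higher), and PLIN2, with 15, 10 and 14, and PLIN4, with 34, 19 and 33, had intervals that included 1.

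**Figure D4:**
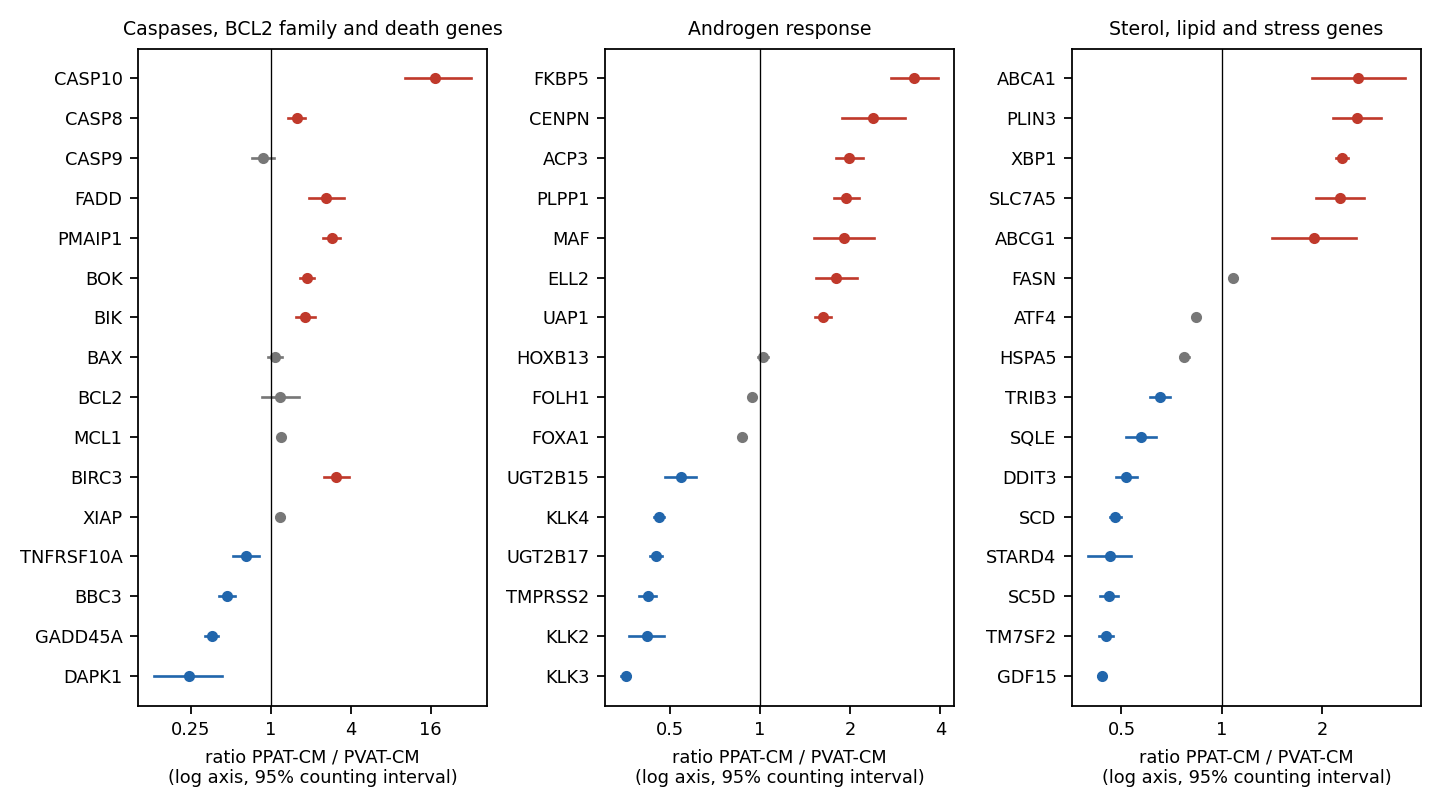
Ratio of PPAT-CM to PVAT-CM (log axis) with its 95% counting interval for 16 genes in each of 3 groups, 1 library a side, red for higher, blue for lower and grey for genes not called. Each group holds genes on both sides of 1, such as CASP10 and DAPK1, FKBP5 and KLK3, or ABCA1 and TM7SF2. The genes were picked after their values were seen.

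The androgen response went both ways. Of 47 measured genes (57 listed) 13 were called lower and 8 higher, with a median of -0.09 that became 0.02 with total-count scaling. Of 10 measured genes for the receptor of androgens and its cofactors 1 was called lower and 0 higher, with log2 ratios from -1.22 to 0.52. The transcription factors FOXA1, HOXB13 and GATA2, which work with androgens in prostate cells, were not called, at -0.20, 0.03 and -0.48. On chromosome 19, KLK3 had 10286, 9982 and 4577 counts (2.81-fold lower, 2.72 to 2.91), KLK2 740, 646 and 348 (2.39-fold lower, 2.10 to 2.74) and KLK4 7741, 6355 and 3770 (2.17-fold lower, 2.09 to 2.26). These are secreted proteases of similar sequence. KLK15, in the same locus, was called lower too, on 56, 56 and 43 counts (1.68-fold lower, 1.11 to 2.56). The pseudogene KLKP1, which lies between KLK2 and KLK4, had an interval that included 1 (0.851 to 1.60). CLEC11A, a neighbour of the locus, was at -0.23. TMPRSS2 was 2.38-fold lower (2.23 to 2.53). UGT2B17 and UGT2B15, enzymes that inactivate androgens, were 2.22-fold (2.12 to 2.33) and 1.84-fold lower (1.64 to 2.08). These enzymes belong to a group that joins androgen-inactivating enzymes with genes that androgens repress. In that group 3 of 4 measured genes were lower, and these 3 count among the 13. For a gene that androgens repress, a lower level has the opposite sense to lower KLK3.

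Other androgen targets were called in both directions. In the list's group of other targets 27 were measured, with 7 higher, 5 lower and 15 not called. Their median was 0.09, and the lowest log2 ratio, -1.46, was that of ZBTB16, whose interval is given below. FKBP5, a chaperone of steroid receptors that glucocorticoids induce too, had 155, 154 and 650 counts (3.27-fold higher, 2.74 to 3.93). CENPN, a centromere protein, was 2.38-fold (1.88 to 3.04) and PLPP1, a lipid phosphatase, 1.94-fold higher (1.76 to 2.14). ACP3, prostatic acid phosphatase, was 1.98-fold higher (1.79 to 2.2) and belongs to another group, that of kallikreins and secreted targets. In that group 6 were measured, with ACP3 the 1 higher, the 4 kallikreins above lower and a median of -0.93. FOLH1, which encodes the surface target PSMA, was at -0.09. In the glucocorticoid list 3 of 10 were higher (FKBP5, CEBPD and MT2A) and 3 lower, namely ZBTB16 (2.76-fold, 2.03 to 3.79), TSC22D3 (1.65-fold, 1.40 to 1.94) and the receptor NR3C1 (1.91-fold, 1.30 to 2.81), the last on 71 and 48 counts.

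All 13 mitochondrially encoded mRNAs had ratios under 1, from -0.39 for MT-CO3 to -1.14 for MT-ND3, with a median of -0.55. The 4 called lower were MT-ND3 (77175 and 45260 counts, 2.2-fold), MT-ND2 (1.82-fold), MT-CO2 (1.66-fold) and MT-CYB (1.53-fold). Nuclear genes for the same respiratory complexes had a median of -0.06 over 41 genes (0.05 with total counts), with 1 higher (UQCRFS1) and 2 lower (COX6A1 and ATP5ME). Among 24 factors that transcribe or process mitochondrial RNA 2 were higher, against 8.56% of all genes kept. They were REXO2, a nuclease that clears short RNA in mitochondria (1666, 1681 and 4085 counts, 1.88-fold, 1.78 to 2.00), and TFB2M (1.56-fold, 1.32 to 1.84). NDUFA4L2, a hypoxia-induced relative of a respiratory subunit, had 11421, 4304 and 1604 counts (3.46-fold lower, 3.27 to 3.67), and 3 other hypoxia targets of 17 were lower, NDRG1, ANKRD37 and ALDOC.

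Of 18 antioxidant genes of the NRF2 list 2 were called higher and none lower, and of 12 iron genes 3 were higher and 1 lower. The shares over all genes kept were 8.56% higher and 6.04% lower. GCLC, which limits glutathione synthesis, had 1961, 1343 and 4972 counts (2.87-fold higher, 2.70 to 3.05), while GCLM, the other subunit of that enzyme, was at 0.11, NQO1 at 0.44 and HMOX1 at 0.20. FTH1, the ferritin heavy chain, had 5705, 7778 and 26196 counts (2.61-fold higher, 2.55 to 2.68), with many near-identical copies in the genome, and FTL, the light chain, was at -0.20. TFRC, which imports iron, was 1.73-fold higher (1.58 to 1.90). SQSTM1, an autophagy receptor that also feeds NF-kB and NRF2 signalling, had 1182, 2321 and 6938 counts (2.32-fold higher, 2.21 to 2.43), and TFEB, which drives lysosome genes, was 2.62-fold higher (2.07 to 3.34), with a median of 0.02 over 33 lysosome genes.

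Of 21 measured collagen, laminin and collagen-modifying genes 3 were called higher and 2 lower, with a median of -0.20. Of 22 epithelial adhesion genes 1 was higher and 4 lower, with a median of -0.12. Across all genes kept 8.56% were higher and 6.04% lower. The matrix and surface genes that follow include some of the largest differences. FN1, fibronectin, had 1628, 2501 and 9549 counts (2.96-fold higher, 2.83 to 3.09), and VIM, the intermediate filament often listed with it, 653, 409 and 249 (2.12-fold lower, 1.81 to 2.49). LAMA3, a laminin chain, had 3443, 2103 and 626 counts (4.33-fold lower, 3.96 to 4.74), and LAMB1 was 2.57-fold higher (2.03 to 3.29). ATP1B1 (ENSG00000143153, chromosome 1, 169105697 to 169132722, plus strand), the beta subunit of the sodium pump, had 7430, 6483 and 1784 counts (4.69-fold lower, 4.45 to 4.94), whereas the alternative beta subunit ATP1B3 was at 0.05. MME, a membrane peptidase that clears neuropeptides, had 23818, 20531 and 9476 counts, the second largest loss in scaled CPM outside the mitochondrial chromosome, from 1440 to 515. CDH26, a cadherin, was 4.0-fold lower (3.48 to 4.61), and CDH1 and EPCAM were at -0.12 and -0.27.

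Of 23 genes in a mixed list of glycoprotein, mucin and gut genes 7 were measured, and 4 were higher and 1 lower. All 4, MUC1, CPB1, CHI3L2 and CLEC7A, had under 50 counts in PVAT-CM and so passed the filter through PPAT-CM. CLEC7A had 8, 25 and 375 counts (11.6-fold, 7.76 to 18.2). Under the filter, SLPI, a protease inhibitor, had 21 and 58 counts (2.14-fold higher, 1.28 to 3.71), while MUC5AC, a gel-forming mucin, had 34 and 18 (ratio 0.410, 0.218 to 0.747), MUC4 12 and 12, PRSS3 10 and 10 and AGR2 9 and 7, all picked after their values were seen. Some genes at the top of the ranking by ratio had hardly any reads in PVAT-CM. CPB1, a pancreatic carboxypeptidase, had 0, 1 and 213 counts (ratio 165, 29.3 to 6553) and CHI3L2, a chitinase-like protein, 1, 4 and 423 (ratio 82.0, 31.8 to 302). KRT20, an intestinal keratin, had 4, 10 and 375 counts (29.1-fold, 15.6 to 61.1), and SLC5A1, the intestinal sodium-glucose transporter, 2, 14 and 248 (13.7-fold, 8.03 to 25.5). MMP7, a protease of glandular epithelium, had 7, 6 and 145 (18.7-fold, 8.4 to 51.9). PRR16 (14.3-fold, 10.8 to 19.5) and CHRD, which binds BMP ligands (13.7-fold, 9.26 to 21.3), were also among the 15 highest. SI, the intestinal sucrase, went the other way with 179, 225 and 42 counts (6.91-fold lower, 4.95 to 9.85). At the low end were COLCA1 (2742, 2005 and 135 counts, 19.2-fold lower, 16.1 to 23.0), annotated as antisense and so uncertain without a stated strand setting, SLITRK6, a neuronal membrane protein (7.85-fold lower, 4.23 to 15.9), FOXN4, a neural transcription factor (8.14-fold lower, 4.78 to 14.8) and APOD, a lipid-binding protein (4.64-fold lower, 3.69 to 5.89).

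By amount of RNA and not by ratio, the largest gains outside the mitochondrial chromosome were in EEF1A1 (6842 to 8157 scaled CPM, 1.19-fold), FTH1 (546 to 1425) and PLA2G2A, a secreted phospholipase of inflammation (355 to 1147, 3.23-fold, 3.13 to 3.33). HSD17B4, a peroxisomal enzyme of fatty acid breakdown, went from 298 to 745 (2.50-fold, 2.42 to 2.59). SESN3, a sestrin that restrains mTORC1, went from 262 to 621 (2.37-fold, 2.28 to 2.46). The largest losses were in RPL29 (3214 to 2158, 1.49-fold lower) and MME, followed by RPL4 (3929 to 3086), RPL14 (2484 to 1666), GDF15 (1379 to 601) and ACTB (2917 to 2178, 1.34-fold lower). Ribosomal protein genes were among the largest gains too, with RPL13A going from 3293 to 4076, RPL3 from 2639 to 3176 and RPL41 from 788 to 1252. The 58 ribosomal protein genes of the list had a median of -0.10, or 0.01 with total counts, and 1 of them, RPL18, was called (1.57-fold lower). RPL41, which the list does not hold, was called higher (1.59-fold, 1.55 to 1.63).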

How the data were processed

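RNA from 3 LNCaP libraries, 1 per medium, was taken with RNeasy columns and made into libraries with a KAPA mRNA kit, per the labels' protocols. The authors deposited whole-number counts per Ensembl gene, without normalization. HISAT2, Trimmomatic, featureCounts, FastQC, edgeR and the GRCh38 genome are named in the submitters' processing notes. Versions, annotation release and strand setting: not given in the sources used here. Names came from a gene table (58472 of 58884 rows) and coordinates from GENCODE 29 (58611 rows).

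Counts were scaled with TMM over all rows (edgeR 4.0.16, R 4.3.3). Log2 ratios used a pseudocount of 0.5, and ratios have exact conditional binomial (Clopper-Pearson) 95% intervals, computed in Python 3.11.15 with scipy 1.17.1, numpy 2.4.6 and pandas 2.3.3. Folds against a count of 0 used a floor of 3 counts per library. No test was possible with 1 library per medium. The steps were tested on simulated data.

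Of 1265 genes in 55 lists 951 were kept. Named genes were the 15 highest and 15 lowest ratios, the 10 largest gains and losses in scaled CPM, up to 6 called members of each role of a list, genes fixed by name, and members needed to state a small count; other names are marked or serve as unchanged relatives of these, picked after their values were seen, and some genes the rule takes are not reported here. The comparison, the members and the lists were chosen with earlier results of these data known. Alternatives were DESeq2 1.42.0 size factors, total counts, upper quartile factors, TMM without mitochondrial genes, a filter and TMM from the 2 adipose media alone, mean counts of at least 10 or 200 or no filter, a pseudocount of 5, protein-coding genes only, intervals that exclude 1, and means for medians.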

Additional observations from a re-analysis of the deposited data

How the results depend on the processing

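Of 49 list medians 7 changed sign with total counts, none of them over 0.10 in size, and the lysosome median of 0.02 was -0.04 with upper quartile factors. With at least 200 counts the HLA class II median of 0.29 was -0.07 and that of mesenchymal genes 0.17 was -0.10, on fewer genes. None changed sign under DESeq2 size factors or TMM without mitochondrial genes. Counts of genes followed the filter. At 2-fold, 300 higher and 180 lower became 781 and 587 at a minimum mean count of 10, 131 and 78 with at least 200, and 5077 and 4265 with no filter, most of the last on few reads. With protein-coding genes only, 118 were at least 2-fold lower. At 1.5-fold, 1191 were lower with at least 10, 555 higher and 361 lower with at least 200, and 1816 and 1482 with no filter. The immunoproteasome median of 0.82 was 0.93 with total counts, 1.21 at a minimum mean of 10, with no filter and with the filter from the adipose media, where PSMB8 and PSMB9 enter, and 0.97 as a mean. The interferon gamma median of 0.93 was 0.65 with at least 200, 1.27 with no filter and 1.25 as a mean. The JAK-STAT3 median of 0.27 was 0.48 as a mean, and the ATF4 median of -0.35 was -0.24 with total counts. The mitochondrial mRNA median of -0.55 was -0.45 with total counts, -0.61 with upper quartile factors and -0.62 as a mean. Filters change which genes enter, and a scaling moves every ratio alike. For the means the cause was not tested. No paired analysis was possible because each medium had 1 library.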
